A study of Drosophila melanogaster with 12 samples.

Results

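Genes that license DNA for replication were followed by name in the deposited gene table, 10 of its 14323 genes: the 6 subunit genes of the MCM helicase (Mcm2, Mcm3, dpa, Mcm5, Mcm6 and Mcm7, dpa being the fly name of Mcm4), the loaders Cdc6 and dup (double parked, the fly Cdt1), Mcm10, and geminin. In G1 the origin recognition complex binds DNA, Cdc6 and Cdt1 join it, and together they close a ring of the 6 MCM proteins around the double helix. The ring stays inactive until S phase kinases, Cdc45, the GINS complex and Mcm10 turn it into a moving helicase, while geminin holds Cdt1 so that no new ring is loaded before the next cycle. Cells that have left the cycle usually carry little of this machinery, and cells that endocycle, which copy their genome without dividing, must load it again for each round.

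RNA came from accessory glands of adult Drosophila melanogaster males, the secretory glands of the male reproductive tract, in 12 libraries of 80 to 100 pooled glands each, taken at 10 days from flies kept at 25 °C. There were 3 libraries for each of 4 genotypes. Myc+E2f/Dp flies carried UAS E2F1 with UAS-Dp and UAS-dMyc, and Yki*+Dp flies carried UAS E2F1 with UAS-Dp and an activated form of UAS-Yki, whose label lists the changed positions. YkiWT flies carried UAS-yki without an E2f or Dp transgene, and control flies carried no oncogene. All 4 genotypes, control included, shared y,w,hs-flp12, the apoptosis inhibitor Uas-P35, the Act>CD2>gal4 flipout driver and Uas-GFP(nls). A heat shock of 20 min in the adult switches that driver on in part of the cells only, and glands with strong GFP were picked by eye, so each library mixes expressing and other cells. Fewer cells expressing a gene and less RNA per cell cannot be told apart in such libraries.

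Values are TPM, the abundance of transcripts relative to all others in a library, which are per transcript length and can be compared between genes, but which keep no record of read depth. Between 6902 and 8120 genes per library reached 1 TPM. TPM is printed as deposited. Tests used TPM multiplied by a factor per library (0.645 to 0.776 in Myc+E2f/Dp, 0.928 to 0.989 in Yki*+Dp, 1.16 to 1.26 in YkiWT and 1.13 to 1.36 in control), since without it the median log2 difference of Myc+E2f/Dp from control was 0.74, against 0.05 with it. A log2 fold change is a difference of log2(scaled TPM + 1), and a gene was called at a limma adjusted p below 0.05 with a log2 fold change of 1 or more, up or down.

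The transgenes were read first as a check of the labels. E2f1 had 1001, 1021 and 795 TPM in Myc+E2f/Dp, against 16.6, 21.2 and 16.5 TPM in control. In Yki*+Dp, whose label also lists an E2F1 transgene, E2f1 stood at 18.5, 18.5 and 22.8 TPM, within the range of control apart from the last library. Dp had 618, 1039 and 1449 TPM in Myc+E2f/Dp, 2327, 2548 and 1866 TPM in Yki*+Dp, and 19 to 24.5 TPM in control. The Myc+E2f/Dp and Yki*+Dp libraries therefore shared raised Dp RNA and differed in E2f1 RNA. Myc had 156, 114 and 232 TPM in Myc+E2f/Dp and 15.2 to 21.7 TPM in control. The yki RNA was 348, 431 and 394 TPM in Yki*+Dp, 77.7, 70.5 and 163 TPM in YkiWT, and 14.2 to 16.5 TPM in control. It was also 122, 175 and 55.9 TPM in Myc+E2f/Dp, whose label lists no yki transgene.

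The 8 main cell markers, seminal fluid protein genes, summed to 38480.1 to 42074 TPM in Myc+E2f/Dp, 39629.8 to 44319 TPM in Yki*+Dp, 49644 to 50913 TPM in YkiWT and 48541 to 50545 TPM in control, so the tissue matched its label. Among markers of cells that could bring in replication genes, 9 genes of the early germline and testis tip summed to 1.91, 2.07 and 2.52 TPM in Myc+E2f/Dp, 0.635 to 0.948 TPM in Yki*+Dp, and 0.642 to 0.833 TPM in control. In YkiWT the sums were 0.671, 0.741 and 4.69 TPM, so that replicate 3 stood apart. Of the 9 genes, 6 had all Myc+E2f/Dp libraries above all control libraries, and 8 were higher in YkiWT replicate 3 than in every control library. Both counts use TPM as deposited, in which the median log2 difference of Myc+E2f/Dp from control was 0.74. The share of all genes with such a separation was not counted, so neither count can be read as particular to these markers. The germline helicase gene vas had 0.577, 0.673 and 0.838 TPM in Myc+E2f/Dp and 0.941 TPM in YkiWT replicate 3, against 0.013 to 0.0394 TPM in control. The values of nos were 0.212, 0.328 and 0.399 TPM in Myc+E2f/Dp and 0.274 TPM in YkiWT replicate 3, and bam, a gene of dividing germ cells, reached at most 0.0249 TPM in Myc+E2f/Dp and 0.3 TPM in YkiWT replicate 3. Both were listed at 0 in all control libraries. Another gene of the list, tj, went the other way in Myc+E2f/Dp, with 0.0112, 0.0162 and 0.0105 TPM, against 0.0533 to 0.067 TPM in control. In YkiWT replicate 3 tj had 0.0548 TPM, within the range of control. The Myc+E2f/Dp values of bgcn and AGO3 overlapped those of control. The 8 late germline markers summed to 4.98 to 16.7 TPM in Myc+E2f/Dp, within the 3.73 to 40.2 TPM of control. Their sums were 3.72 to 17.6 TPM in Yki*+Dp and 12.5 to 51 TPM in YkiWT. SP was the largest part of the main cell sums, and averaged 14928 TPM in Myc+E2f/Dp and 21425 TPM in control. Acp36DE and Acp53Ea were also lower on average in Myc+E2f/Dp than in control, whereas Acp26Aa, Acp26Ab and Acp76A were higher. Markers of other cell types also moved with the genotypes. The 5 secondary cell markers found in the table, of 6, summed to 4565 to 5143 TPM in Myc+E2f/Dp, 6837 to 8963 TPM in Yki*+Dp, 6123 to 7351 TPM in YkiWT and 8267 to 9253 TPM in control. These sums are carried by the abundant CG17575, lectin-46Ca and lectin-46Cb. The other markers were level: dve averaged 12.1 TPM in both Myc+E2f/Dp and control, and Abd-B averaged 1.54 and 1.6 TPM. The sum of the 5 muscle markers was highest in Yki*+Dp, at 282 to 327 TPM, against 152 to 199 TPM in control. The sum of the 6 hemocyte markers was also highest there, at 18 to 20.9 TPM, against 9.03 to 12.5 TPM in control. Of the hemocyte sum in Yki*+Dp, srp alone made up 12.2 to 16.9 TPM. Single markers differed: bt of muscle averaged 1.16 TPM in Yki*+Dp and 1.22 TPM in control, and eater of hemocytes averaged 0.428 TPM in Yki*+Dp and 0.442 TPM in YkiWT. The 4 fat body markers found, of 5, summed to 0.667 to 2.17 TPM in Myc+E2f/Dp and 0.247 to 0.481 TPM in control. Most of the Myc+E2f/Dp sum was apolpp, which averaged 1.15 TPM there and 0.228 TPM in control. Yp1 was also higher, but Lsp2 averaged 0.0989 TPM in Myc+E2f/Dp and 0.103 TPM in control, and Fbp1 overlapped control. The part of these markers in the results was not tested.

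In Myc+E2f/Dp 9 of the 10 licensing genes were called higher than in control, and 0 lower, whereas 7.15% of the 8128 genes tested were called higher in that comparison. Cdc6 was the exception, with an adjusted p past the threshold but a smaller fold. The median log2 fold change was 2.22 over the 10 genes, against 0.05 over all genes tested. After scaling, all 3 Myc+E2f/Dp libraries lay above all 9 other libraries for each of the 10 genes, a separation shown by 23.9% of the genes tested. All 10 passed the filter of 1 TPM in 3 libraries, but Mcm2, Mcm5, Mcm7 and Mcm10 passed it through the 3 Myc+E2f/Dp libraries alone, so these 4 had to differ to be tested at all. Mcm3 and dup reached 1 TPM in only 1 and 2 of the 9 other libraries and so also needed the Myc+E2f/Dp ones to pass, which leaves dpa, Mcm6, Cdc6 and geminin as the 4 members that passed without them. With no filter 9 were also called. Without Myc+E2f/Dp replicate 1, 2 or 3 the filter drops Mcm2, Mcm5, Mcm7 and Mcm10, and 5 members were called. With the genes of the full filter kept, an alternative chosen after seeing the data, 9 were called each time.

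**Figure D1:**
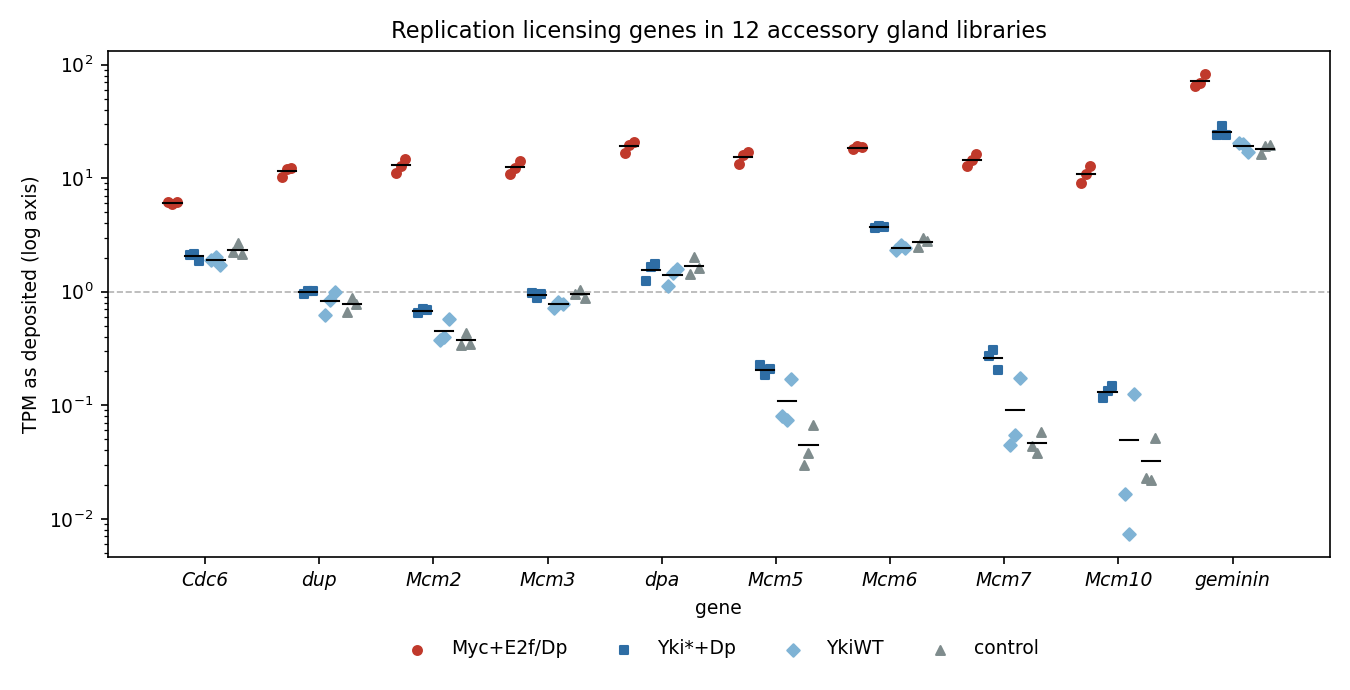
TPM as deposited (log axis) of the 10 licensing genes in each of 12 libraries, 3 per genotype, with black bars for the mean and a dashed line at 1 TPM. Each gene has all 3 Myc+E2f/Dp points above its other points; Mcm5, Mcm7 and Mcm10 lie below 0.1 TPM in control, where geminin lies above 16 TPM.

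Cdc6, on chromosome 3L from 8631509 to 8634069 of the BDGP6 assembly, to which all positions refer, encodes an ATPase that recruits the MCM ring to origins. It had 6.16, 5.92 and 6.11 TPM in Myc+E2f/Dp, 2.1, 2.16 and 1.87 TPM in Yki*+Dp, 1.92, 2.01 and 1.73 TPM in YkiWT, and 2.23, 2.66 and 2.15 TPM in control. The Myc+E2f/Dp libraries lay above all others and Yki*+Dp overlapped both YkiWT and control, and the scaling removed part of the gap of Myc+E2f/Dp. With scaling the log2 fold change of Cdc6 against control was 0.43 (standard error 0.08; limma, adjusted p = 0.000511), and with TPM as deposited it was 1.08 (limma, adjusted p = 6.33e-07), past the fold threshold. Cdc6 was the lowest of the 10 in each Myc+E2f/Dp library and the third highest of the 10 by mean TPM in the other genotypes. The gene lies within the Zasp66 locus on the opposite strand and shares 0 exon bases with it.

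The partner of Cdc6 in loading, dup, lies on chromosome 2R from 15376619 to 15380988. The dup gene had 10.2, 12 and 12.4 TPM in Myc+E2f/Dp, 0.958, 1.01 and 1.01 TPM in Yki*+Dp, 0.623, 0.841 and 0.999 TPM in YkiWT, and 0.662, 0.883 and 0.779 TPM in control. Outside Myc+E2f/Dp the values lay between 0.623 and 1.01 TPM. In Myc+E2f/Dp dup was raised over control by 2.22 on the log2 scale (standard error 0.08; limma, adjusted p = 2.64e-09), a ratio of 8.44 in mean scaled TPM. The gap between the loaders was thus turned over: Cdc6 exceeded dup in every library of Yki*+Dp, YkiWT and control, and dup exceeded Cdc6 in every Myc+E2f/Dp library.

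The 6 subunit genes split into those that stayed readable outside Myc+E2f/Dp and those near 0. Mcm6, on chromosome X from 6674387 to 6677176, was the most abundant subunit gene in each library other than those of Myc+E2f/Dp. It had 18, 19.1 and 18.8 TPM in Myc+E2f/Dp, 3.66, 3.78 and 3.75 TPM in Yki*+Dp, 2.32, 2.58 and 2.44 TPM in YkiWT, and 2.47, 2.99 and 2.79 TPM in control. Its log2 fold change in Myc+E2f/Dp against control was 1.68 (standard error 0.06; limma, adjusted p = 1.91e-09), the smallest of the 6. dpa, on chromosome 2R from 7496702 to 7500145, encodes the Mcm4 subunit. Its values were 16.8, 19.6 and 21 TPM in Myc+E2f/Dp, 1.25, 1.65 and 1.76 TPM in Yki*+Dp, 1.12, 1.47 and 1.6 TPM in YkiWT, and 1.43, 2.02 and 1.63 TPM in control. Only the Myc+E2f/Dp libraries stood clear, with a log2 fold change of 2.23 against control (standard error 0.09; limma, adjusted p = 6.89e-09).

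Mcm3, on chromosome X from 5323855 to 5326738, had 11, 12.3 and 14.3 TPM in Myc+E2f/Dp, 0.977, 0.873 and 0.949 TPM in Yki*+Dp, 0.722, 0.819 and 0.778 TPM in YkiWT, and 0.95, 1.04 and 0.88 TPM in control. It was the lowest subunit gene in each Myc+E2f/Dp library, though in the middle of the 6 elsewhere. The difference of Mcm3 from control was 2.16 on the log2 scale (standard error 0.06; limma, adjusted p = 8.07e-10). Mcm2, on chromosome 3R from 8264970 to 8267924, had 11.1, 12.9 and 14.9 TPM in Myc+E2f/Dp, 0.646, 0.704 and 0.692 TPM in Yki*+Dp, 0.372, 0.401 and 0.57 TPM in YkiWT, and 0.342, 0.43 and 0.344 TPM in control. The Yki*+Dp libraries of Mcm2 lay above the control ones, and YkiWT replicate 3 was the highest of its group. For Mcm2 the log2 fold change in Myc+E2f/Dp against control was 2.79 (standard error 0.07; limma, adjusted p = 4.98e-10).

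The remaining pair had the lowest control levels among the subunit genes and the largest log2 fold changes of the 10 in Myc+E2f/Dp. Mcm5, on chromosome 3R from 10788524 to 10791150, had 13.4, 16.1 and 16.9 TPM in Myc+E2f/Dp, 0.225, 0.186 and 0.208 TPM in Yki*+Dp, 0.0799, 0.0745 and 0.17 TPM in YkiWT, and 0.0298, 0.038 and 0.0669 TPM in control. Of the 8128 genes tested, Mcm5 ranked 16 by log2 fold change in Myc+E2f/Dp against control, at 3.49 (standard error 0.07; limma, adjusted p = 7.41e-11). Mcm7, on chromosome 3L from 8891596 to 8894310, had 12.8, 14.5 and 16.5 TPM in Myc+E2f/Dp, 0.271, 0.308 and 0.205 TPM in Yki*+Dp, 0.0448, 0.0544 and 0.173 TPM in YkiWT, and 0.0436, 0.038 and 0.0586 TPM in control. Mcm7 ranked 20 with 3.41 (standard error 0.08; limma, adjusted p = 1.47e-10). Mcm5 and Mcm7 entered this ranking only because they were high in Myc+E2f/Dp, so the ranks lend no support of their own. For both genes the order of genotypes was Myc+E2f/Dp, then Yki*+Dp, then control, with no overlap between these, and YkiWT overlapped control for Mcm7. The pseudocount of 1 understates such changes: the ratio of mean scaled TPM in Myc+E2f/Dp over control was 194 for Mcm5 and 175 for Mcm7, figures that rest on control values whose read number is unknown. The antisense RNA asRNA:CR45871 covers 81.7% of the exon bases of Mcm7 on the opposite strand, and its reads could be told from those of Mcm7 only if strand was used in counting, which the sources used here do not state.

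The subunit genes came close together in Myc+E2f/Dp. There the highest of the 6 exceeded the lowest by a ratio of 1.48 to 1.64 within a library, with dpa or Mcm6 at the top and Mcm3 at the bottom. The same ratio was 16.3 to 20.4 in Yki*+Dp, 14.4 to 51.9 in YkiWT and 47.6 to 82.8 in control, where Mcm6 was at the top and Mcm5 or Mcm7 at the bottom. These ratios are taken within a library and do not depend on the scaling. Outside Myc+E2f/Dp they rest on a very low value of Mcm5 or Mcm7, at 0.0298, 0.038 and 0.0586 TPM in control, whose read number is unknown. The sum of the 6 was 83.1 to 102 TPM in Myc+E2f/Dp, 7.03 to 7.56 TPM in Yki*+Dp, 4.66 to 5.73 TPM in YkiWT and 5.26 to 6.56 TPM in control. The lowest ratio in YkiWT, 14.4, belonged to replicate 3, and the other YkiWT libraries had ratios of 51.9 and 47.4. Replicate 3 also had the highest sum of early germline markers, 4.69 TPM. The Myc+E2f/Dp libraries had sums above those of control as well, and a link of these markers to the ratio was not tested.

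**Figure D2:**
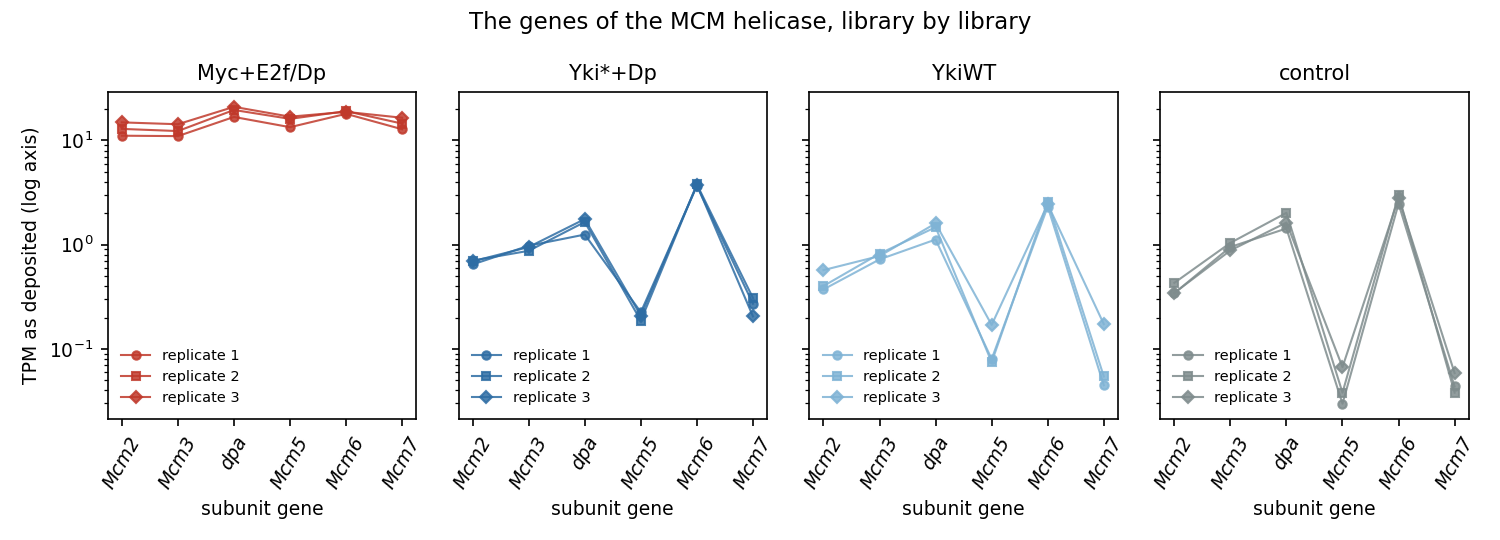
TPM as deposited (log axis) of the 6 MCM subunit genes, 1 panel per genotype and 1 line per library. The Myc+E2f/Dp lines are nearly level between 11 and 21 TPM, and in the other panels Mcm5 and Mcm7 fall far below Mcm6.

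Mcm10, on chromosome 2L from 21179933 to 21182812, encodes a factor that acts when the loaded ring is activated; despite its name it is no subunit of the ring. It had 9.09, 10.8 and 12.9 TPM in Myc+E2f/Dp, 0.115, 0.133 and 0.147 TPM in Yki*+Dp, 0.0164, 0.00737 and 0.125 TPM in YkiWT, and 0.023, 0.0218 and 0.0519 TPM in control. Mcm10 was the lowest of the 10 by mean TPM in every genotype but Myc+E2f/Dp, and YkiWT replicate 3 again lay far above its group. The log2 fold change of Mcm10 in Myc+E2f/Dp against control was 3.06 (standard error 0.08; limma, adjusted p = 6.02e-10), and the ratio of mean scaled TPM was 190. Relative to the mean of the 6 subunit genes, Mcm10 stood at 0.656 to 0.758 in Myc+E2f/Dp and at 0.0199 to 0.054 in control. Its last exon shares 367 bases with Ret on the opposite strand, a gene of at most 0.0857 TPM in these libraries.

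geminin, on chromosome 2R from 6655463 to 6656594, encodes the inhibitor of Dup, and it was the most abundant of the 10 in every genotype. It had 64.7, 69.4 and 83.2 TPM in Myc+E2f/Dp, 24.1, 28.6 and 23.9 TPM in Yki*+Dp, 20.4, 20.1 and 17 TPM in YkiWT, and 16.2, 19.1 and 19.5 TPM in control. Unlike the loaders and the helicase, geminin RNA was thus well above 10 TPM in control. It rose by the smallest amount among the 9 called genes, 1.13 on the log2 scale (standard error 0.09; limma, adjusted p = 1.58e-06), a ratio of 2.24 in mean scaled TPM. The ratio of geminin to dup TPM within a library, which no scaling touches, was 6.37, 5.81 and 6.71 in the Myc+E2f/Dp libraries, 25.2, 28.4 and 23.5 in Yki*+Dp, 32.7, 23.9 and 17 in YkiWT, and 24.5, 21.6 and 25 in control. The Myc+E2f/Dp libraries had the lowest ratios of inhibitor to target, with no overlap with any other library.

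**Figure D3:**
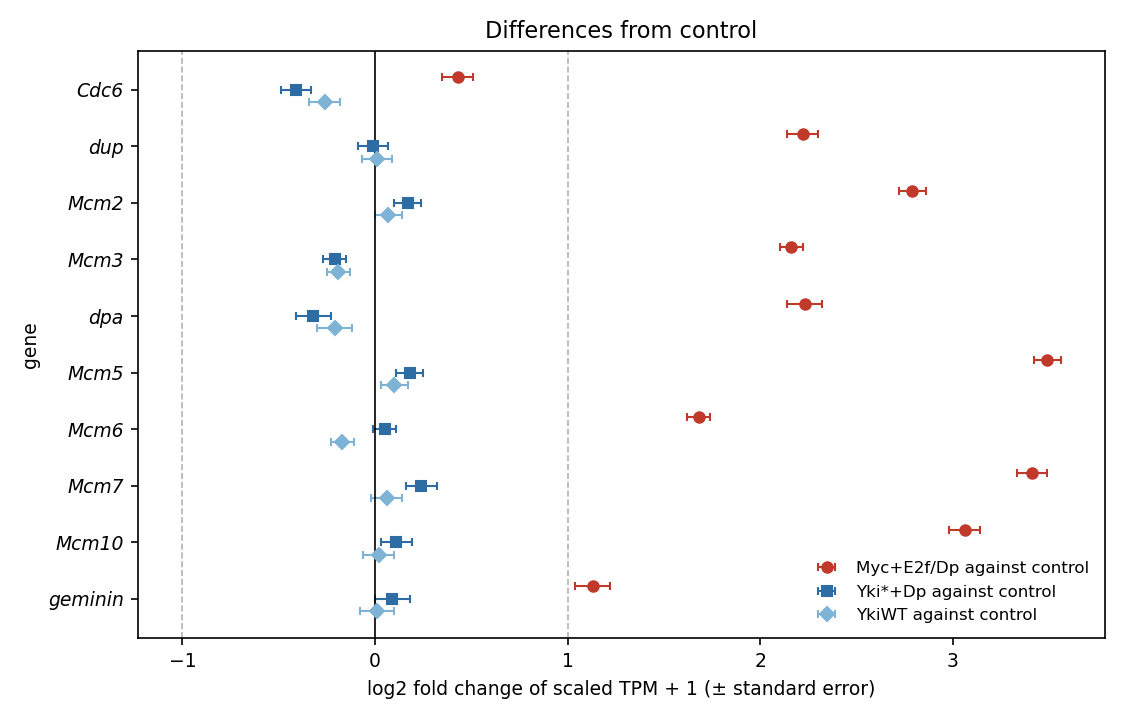
Log2 fold change against control of each licensing gene (horizontal axis, ± standard error from 1 limma fit over 12 libraries), with dashed lines at the call threshold of 1 in either direction. In Myc+E2f/Dp 9 genes lie beyond 1 and Cdc6 lies at 0.43; the Yki*+Dp and YkiWT points lie between -0.41 and 0.24.

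In Yki*+Dp 0 of the 10 were called against control, and 6.99% of all genes tested were, so 0 calls among 10 genes are close to the background. At an unadjusted p below 0.05 there were 6, with 0 past the fold threshold. The share of all genes at an unadjusted p below 0.05 was not counted in any comparison. Such counts, here and for the lists below, therefore have no background to be read against. At an adjusted p below 0.05 of any fold there were 4 of 10, against 39.0% of all genes: Mcm7 at 0.24 (standard error 0.08; limma, adjusted p = 0.0312), Mcm3 at -0.21 (standard error 0.06; limma, adjusted p = 0.0198), dpa at -0.32 (standard error 0.09; limma, adjusted p = 0.0136) and Cdc6 at -0.41 (standard error 0.08; limma, adjusted p = 0.00154). The 3 negative values rest on the scaling: with TPM as deposited they were -0.02 for Mcm3, -0.08 for dpa and -0.13 for Cdc6, with adjusted p of 0.887, 0.617 and 0.216. The 95% intervals of the 10 differences ran from -0.58 for Cdc6 to 0.41 for Mcm7. On this scale a change of a gene below 1 TPM hardly registers. With a pseudocount of 0.1, Mcm7 stood at 1.13 (limma, adjusted p = 0.00718) and was called, Mcm5 at 0.94 (limma, adjusted p = 0.0094), Mcm10 at 0.69 (limma, adjusted p = 0.125) and Mcm2 at 0.42 (limma, adjusted p = 0.0381). These 4 were the genes with the lowest control levels, and they were the 4 of the 10 with all scaled Yki*+Dp libraries above all control libraries, which held for 27.8% of all genes tested. Their ratios of mean scaled TPM in Yki*+Dp over control were 4.24 for Mcm7, 3.52 for Mcm5, 3.11 for Mcm10 and 1.41 for Mcm2.

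In YkiWT 0 of the 10 were called against control, against 2.13% of all genes tested, and 0 had an adjusted p below 0.05 of any fold, against 10.6% of all genes. For 10 genes both counts are close to the background. Unadjusted, 4 had a limma p below 0.05, none past the fold threshold, and the share of all genes was again not counted. The 95% intervals ran from -0.43 for Cdc6 to 0.26 for Mcm5. The highest YkiWT values of Mcm2, Mcm5, Mcm7 and Mcm10 were those of replicate 3. Without it their log2 fold changes against control lay between -0.04 for Mcm10 and 0.05 for Mcm5. The limma adjusted p lay between 0.701 and 0.994, and 0 of the 10 were called. On this scale a change of a gene below 1 TPM hardly registers, so values near 0 do not show that these genes were level. With a pseudocount of 0.1, replicate 3 included, Mcm5 stood at 0.54 (limma, adjusted p = 0.195). Mcm7 stood at 0.33 (limma, adjusted p = 0.504) and Mcm2 at 0.16 (limma, adjusted p = 0.513). The value for Mcm10 was 0.09 (limma, adjusted p = 0.889).

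Set against each other, Myc+E2f/Dp and Yki*+Dp differed in 9 of the 10 licensing genes, all called higher in Myc+E2f/Dp, where 5.0% of all genes tested were called higher. The median log2 difference over the 10 was 2.46, against -0.02 over all genes. Here too Mcm2, Mcm3, Mcm5, Mcm7, Mcm10 and dup were tested only because the Myc+E2f/Dp libraries took them past the filter. The members that passed it without those libraries were dpa, Mcm6, Cdc6 and geminin. Mcm5 led with 3.31 (standard error 0.07; limma, adjusted p = 1.66e-10), and Cdc6 was again below the fold threshold at 0.84 (standard error 0.08; limma, adjusted p = 4.51e-06). It passed at 1.22 with TPM as deposited and at 1.10 with a pseudocount of 0.1. geminin was called narrowly, at 1.04 (standard error 0.09; limma, adjusted p = 3.09e-06), and missed the fold threshold at 0.99 without Yki*+Dp replicate 3. Between Yki*+Dp and YkiWT 0 of the 10 were called, against 4.02% of all genes, and 2 had an unadjusted limma p below 0.05. Mcm6 alone had an adjusted p below 0.05, at 0.21 (standard error 0.06; limma, adjusted p = 0.0178), a share of 1 in 10 against 27.7% of all genes. Without YkiWT replicate 3, Mcm7 also did, at 0.24 (limma, adjusted p = 0.0325), and again 0 were called.

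The transcript table lists 2 dup transcripts, whose estimated shares of the gene differed between Myc+E2f/Dp and the other genotypes. Both have 3 exons and the same 2229 coding bases, and they differ in the first exon. That exon runs from 15380319 to 15380614 on chromosome 2R in FBtr0339999 and from 15380319 to 15380988 in FBtr0087387. The gene is on the minus strand, so the 374 added bases lie at the 5′ end, before the coding start. FBtr0339999, the shorter form, had 8.85, 10.9 and 11.1 TPM in Myc+E2f/Dp, 0.225, 0 and 0.0497 TPM in Yki*+Dp, 3.46e-08, 0.158 and 0.155 TPM in YkiWT, and 0.0634, 0 and 0.0624 TPM in control. FBtr0087387, the longer form, had 1.31, 1.06 and 1.31 TPM in Myc+E2f/Dp, 0.733, 1.01 and 0.964 TPM in Yki*+Dp, 0.623, 0.683 and 0.844 TPM in YkiWT, and 0.598, 0.883 and 0.716 TPM in control. In these estimates the gain of dup lay in the shorter form: after scaling, the longer form lay at 0.754 to 1.01 in Myc+E2f/Dp and at 0.814 to 1 in control.

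In shares, the shorter form made up 87.1%, 91.1% and 89.5% of dup TPM in Myc+E2f/Dp. It made up 23.4%, 0% and 4.9% in Yki*+Dp, 5.54e-06%, 18.8% and 15.6% in YkiWT, and 9.58%, 0% and 8.01% in control. No test was run on the shares, which are estimates by kallisto from a gene of about 1 TPM in the genotypes other than Myc+E2f/Dp. Of the 374 bases found only in the longer form, 158 also lie in exons of SRPK, a kinase gene on the opposite strand with 12.2 to 14.4 TPM in Myc+E2f/Dp and 5.72 to 6.96 TPM in control. The libraries were made with a kit that marks strand, but whether strand was used in the assignment is not given in the sources used here, so reads of the longer form and of SRPK cannot be told apart over those bases. Of the other members, Mcm2, Mcm5, Mcm6, Mcm7, Mcm10 and Cdc6 have 1 transcript each, and 1 transcript held at least 99% of geminin (FBtr0336665), at least 99.5% of Mcm3 (FBtr0070762) and at least 95.3% of dpa (FBtr0088982) in every library.

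**Figure D4:**
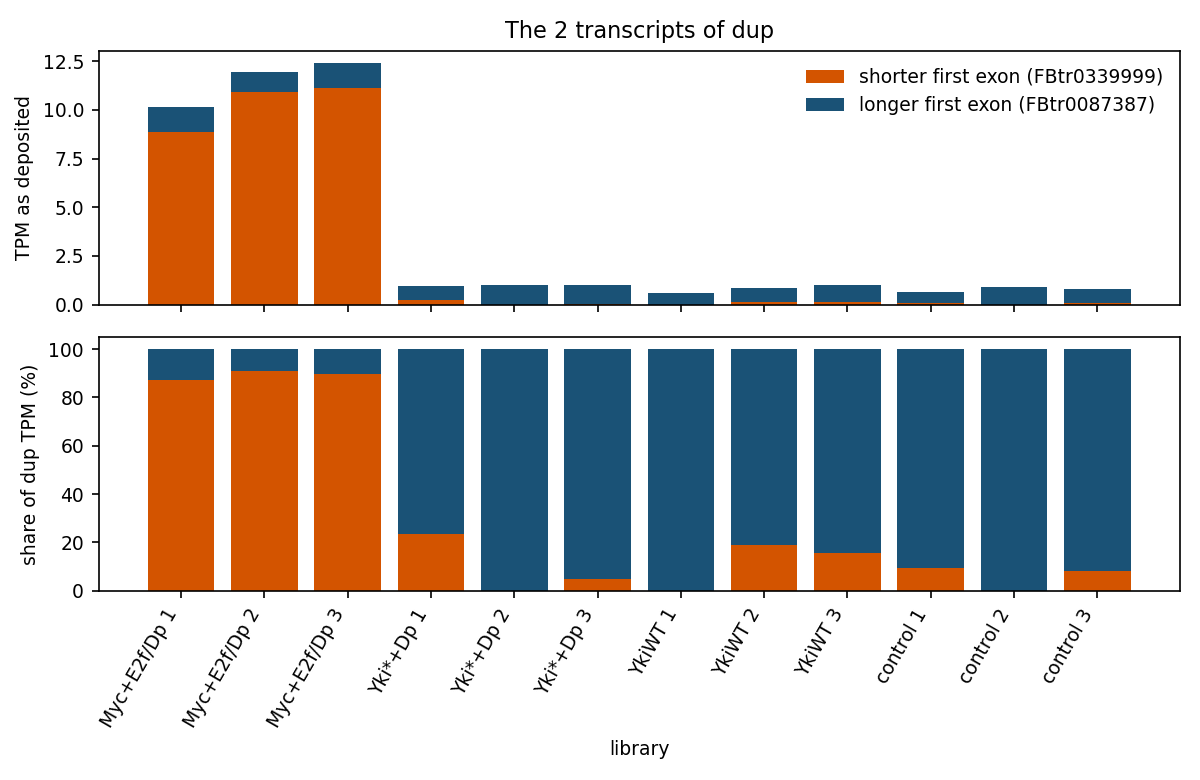
Stacked bars of the 2 dup transcripts in each library, as TPM (upper panel) and as a share of dup TPM (lower panel). The shorter form makes up 87.1% to 91.1% of the bars in Myc+E2f/Dp and at most 23.4% in the 9 other libraries.

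The genes around licensing were counted from lists, with values for up to 5 called genes per list. All 6 genes of the origin recognition complex, the platform that Cdc6 joins, were called higher in Myc+E2f/Dp than in control, where 7.15% of all genes tested were, with a median log2 fold change of 2.0, against 0.05 over all genes. Orc2, Orc5 and Orc6 reached 1 TPM in the Myc+E2f/Dp libraries alone, and Orc3 in 2 of the others, so these 4 were tested only because they were high there, and Orc1 and Orc4 passed the filter without those libraries. Orc2 led with 2.32 (standard error 0.1; limma, adjusted p = 2.07e-08), at 4.63, 6.1 and 6.78 TPM in Myc+E2f/Dp, against 0, 0.012 and 0.028 TPM in control. It was followed by Orc6 at 2.30, Orc1 at 2.05, Orc5 at 1.95 and Orc3 at 1.62. Against control 0 of the 6 were called in Yki*+Dp and 0 in YkiWT (limma; 2 and 1 at an unadjusted p below 0.05), where 6.99% and 2.13% of all genes were.

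Of 10 genes that turn the loaded ring into a helicase, 4 were called higher in Myc+E2f/Dp, against 7.15% of all genes tested. The number called lower was 0, and the median over the 10 was 0.54. Of the 4 called higher, RecQ4 and mus101 passed the filter through the Myc+E2f/Dp libraries alone, and Sld5 and Cdc45 passed it without them. RecQ4, a helicase of the initiation step, stood at 2.26 (standard error 0.09; limma, adjusted p = 4.92e-09), with 5.81, 5.96 and 5.55 TPM in Myc+E2f/Dp, against 0.0435, 0.0542 and 0.0466 TPM in control. The others were Sld5 of the GINS complex at 1.67, mus101, the fly TopBP1, at 1.41, and Cdc45 at 1.22. The GINS complex did not move as a unit: its genes Psf1, Psf2 and Psf3 were not called, at 0.53, -0.37 and -0.25, values named after they were seen. As deposited, Psf2 averaged 4.56 ± 0.858 TPM in Myc+E2f/Dp and 3.56 ± 0.466 TPM in control, and Psf3 averaged 11.6 ± 1.29 TPM in Myc+E2f/Dp and 7.99 ± 0.714 TPM in control (SD, n = 3 each), so the sign of both depends on the scaling.

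Of 9 genes that control licensing or drive S phase, 5 were called higher in Myc+E2f/Dp, against 7.15% of all genes tested. The number called lower was 0, and the median over the 9 was 1.78. Of the 5 called higher, CycE alone passed the filter without the Myc+E2f/Dp libraries, and Cdk1, Cdk2, CycA and l(2)dtl reached 1 TPM in 1 other library each. Cdk1, the kinase of mitosis, stood at 3.45 (standard error 0.32; limma, adjusted p = 4.28e-06), with 12.3, 15.8 and 19.5 TPM in Myc+E2f/Dp, against 0.149, 0.0164 and 0.0719 TPM in control. CycE and Cdk2, the S phase kinase pair, stood at 2.32 and 2.24. l(2)dtl, the fly Cdt2 that marks Dup for destruction in S phase, stood at 1.99, and CycA at 1.78. Cdk1 and CycA were also the genes of this list at which YkiWT replicate 3 stood apart, with 1.73 and 1.02 TPM, against at most 0.101 and 0.0748 TPM in replicates 1 and 2.

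Of 5 genes of the E2f and Rbf families, 4 were called higher in Myc+E2f/Dp, against 7.15% of all genes tested. Of these 4, E2f1 at 4.82 and Dp at 4.59 are the transgenes, so their calls were set by the design. The others were the pocket protein genes Rbf at 1.94 and Rbf2 at 1.34, and Rbf2 passed the filter through Myc+E2f/Dp alone. Of the 5 genes, Dp, a transgene there too, was the only one called in Yki*+Dp, at 6.21. Of the 10 helicase activation genes 0 were called in Yki*+Dp and 0 in YkiWT against control (limma; 5 and 4 at an unadjusted p below 0.05), and likewise 0 of the 9 genes of licensing control (limma; 3 and 0 unadjusted). With 6.99% and 2.13% of all genes called in those comparisons, 0 calls in lists of this size are close to the background. Between Myc+E2f/Dp and Yki*+Dp, where 5.0% of all genes tested were called higher, the lists gave 6 of 6, 4 of 10, 6 of 9 and 4 of 5 genes called higher. Among them again were the genes that passed the filter only through Myc+E2f/Dp, and the 4 of 5 include the transgene E2f1. Called lower were fzr, the fly Cdh1, at -1.34 and the transgene Dp at -1.62, and fzr was named after its value was seen. The 3 meiotic relatives of the MCM family, rec, mei-217 and mei-218, were too low to be tested. Of these rec, also named after its values were seen, stood at 0.765, 0.798 and 1.04 TPM in Myc+E2f/Dp and 0.691, 0.856 and 0.641 TPM in control, but at 0.0842 to 0.113 TPM in Yki*+Dp and 0.0889 to 0.157 TPM in YkiWT.

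**Figure D5:**
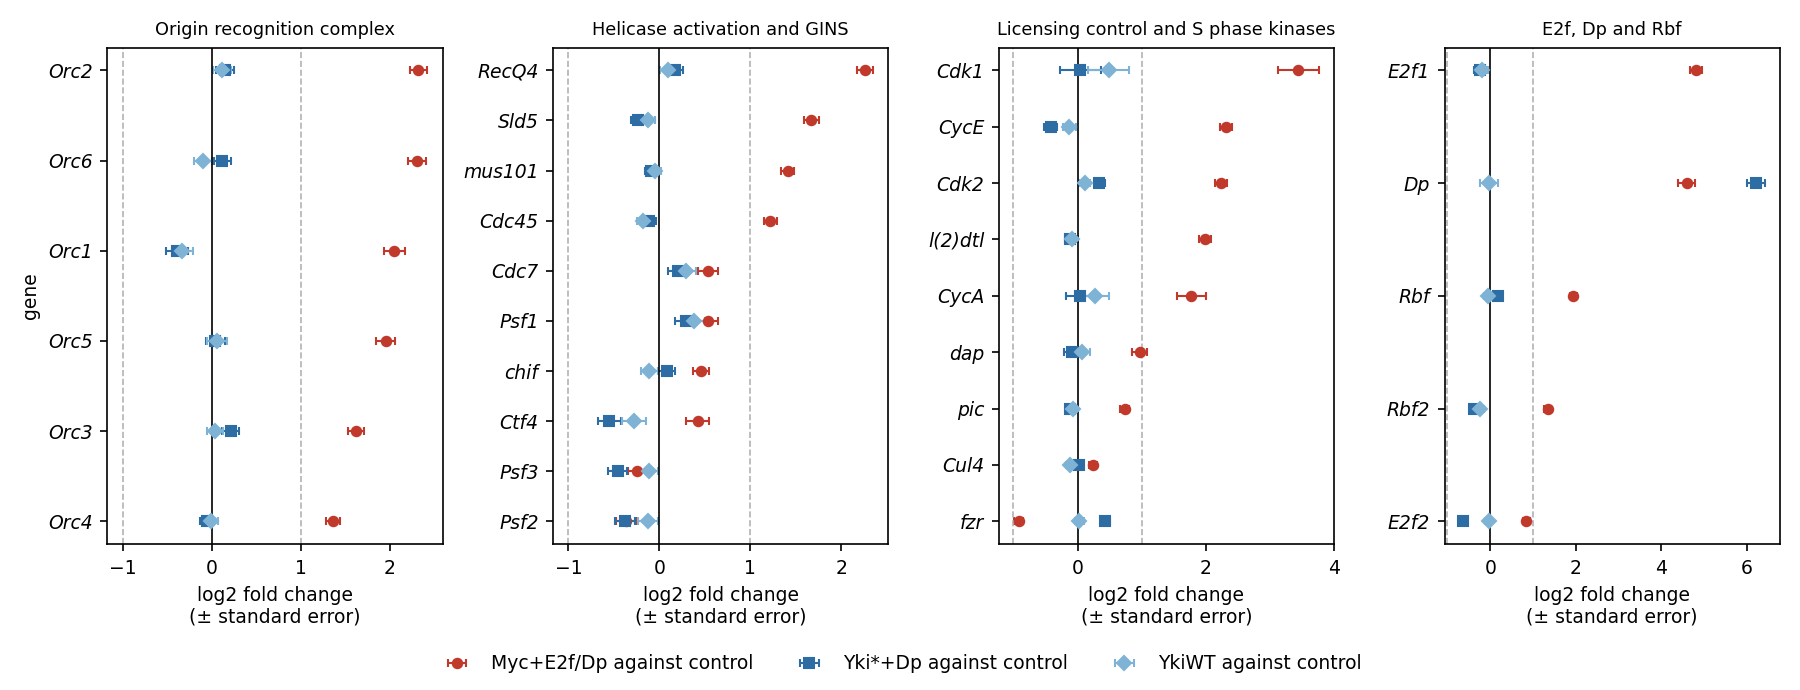
Log2 fold change against control (horizontal axis, ± standard error) of each tested gene of 4 lists around licensing, for 3 genotypes, with dashed lines at the call threshold of 1 in either direction. All 6 origin recognition genes lie beyond 1 in Myc+E2f/Dp only, and Psf1, Psf2 and Psf3 lie within the threshold in every genotype.

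The profile of the 10 genes over the 12 libraries was mainly a step between Myc+E2f/Dp and the rest, and each member was compared with their mean profile on the standardized log2 scale. Pearson's r with that mean, which holds the gene itself, was 0.998 for Mcm3, at least 0.9935 for the other MCM genes and dup, 0.9772 for geminin and 0.8874 for Cdc6. The 5 other genes nearest to the profile were mus101 (r = 0.9987), hd (0.9975), CG10445 (0.9975), dnk (0.9975) and CG13690 (0.9973). Humpty dumpty, hd, is needed for DNA replication, and dnk encodes a kinase that salvages deoxyribonucleosides. dnk had 86, 100.2 and 111 TPM in Myc+E2f/Dp, against 2.21, 2.52 and 2.3 TPM in control. With 2 clusters of libraries, an r near 1 says little beyond a shared step.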

How the data were processed

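The authors isolated RNA with TRIzol, made poly-A selected TruSeq Stranded libraries, trimmed reads with cutadapt 1.18 (per the submitters' processing notes), assigned them to Ensembl BDGP6.28 transcripts with kallisto and deposited TPM per transcript (31089) and per gene (14323). The kallisto version and options, and the read depth, are not given in the sources used here, so precision rests on the spread of 3 libraries. Gene values equalled transcript sums within 3.64e-12 TPM. The authors tested with sleuth, whose resampled estimates were not used here.

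Each library was multiplied by its median-of-ratios factor, taken over 6633 genes of at least 1 TPM in all 12 libraries, and 1 was added before log2. Genes of at least 1 TPM in 3 libraries (8128) were fitted with limma 3.58.1 in R 4.3.3, in 1 fit over the 4 groups with eBayes trend=TRUE. Benjamini-Hochberg adjustment ran over all genes tested within each of 5 comparisons. The fit was tested on simulated data. Groups and replicate numbers came from the sample titles. Nothing in the labels states that libraries of a group came from separate crosses, so p-values measure the spread between these libraries. The members and lists were chosen with earlier results of these data known. Named were every member, up to 5 called genes per list, the transgenes and the 5 genes most like the mean profile. Coordinates are 1-based from the Ensembl BDGP6.54 annotation of the BDGP6 assembly, in which every transcript listed for the members was found. A search of promoters for motifs was not run. Alternatives were other scalings, pseudocounts and filters, fits limited to the compared groups, a block for the replicate number, no trend, and the omission of each library in turn.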

Additional observations from a re-analysis of the deposited data

How the results depend on the processing

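The 9 calls against control and the 9 against Yki*+Dp kept their count within 1 gene under every other scaling, pseudocount and filter tried, and no member changed sign past the thresholds. With TPM as deposited 2448 genes were called in Myc+E2f/Dp against control (95.6% higher, against 54.6% of 1064), and higher calls made up 93.8% in Yki*+Dp against control (79.0% with scaling), 78.3% in Myc+E2f/Dp against Yki*+Dp (47.5%; 60.8% with 75th percentile scaling) and 83.5% in Yki*+Dp against YkiWT (61.5%). With a pseudocount of 0.1, 318 genes were called in YkiWT against control (173 with 1), and 1 member, Mcm7, in Yki*+Dp against control.

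Leaving out each library gave 5 to 9 members called in Myc+E2f/Dp against control and 5 to 9 against Yki*+Dp. The value 5 came without Myc+E2f/Dp replicate 1, 2 or 3, since Mcm2, Mcm5, Mcm7 and Mcm10 then no longer reach 1 TPM in 3 libraries and go untested. Keeping the genes of the full filter, an alternative chosen after seeing the data, 9 were called each time. In the other comparisons 0 members were called throughout. Over these left-out libraries 747 to 1178 genes were called in Myc+E2f/Dp against control.

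Libraries with the same replicate number did not deviate together in all pairs (correlations -0.313 to 0.515 over 18 pairs), so the numbers were not taken as pairs. With a replicate block 1073 genes were called in Myc+E2f/Dp against control, 569 in Yki*+Dp against control, 167 in YkiWT against control, 858 in Myc+E2f/Dp against Yki*+Dp and 333 in Yki*+Dp against YkiWT, and 9, 0, 0, 9 and 0 members. The depth is unknown, so values below 0.1 TPM, which carry the largest ratios, have no counting error attached.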
